A study of Mus musculus with 9 samples.

Results

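The genes described here encode machinery that builds melanosomes and moves them, and they were taken by name from the deposited table as a set of 10 among 54449 genes: Rab27a, Rab38, Rab32, Mlph, Myo5a, Hps1, Hps4, Hps5, Dtnbp1 and Gpnmb. All 10 were found, each as 1 entry, and all 10 had a mean normalized count of at least 5 over the libraries, which was the minimum for testing. RNA came from 9 libraries of cells sorted from the lungs of C57BL/6 mice and labelled as eosinophils, with 3 libraries in each of 3 groups and 3 to 4 mice pooled per library. The Siglec-F high group (titled iEOS) and the Siglec-F int group (intermediate, titled rEOS) came from mice given PyMT tumour cells, named for the polyoma middle T oncogene, through the tail vein. The naive group came from mice given saline only, and no other allele or agent is labelled in any group. Age and the time between injection and sorting are not given in the sources used here.

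Melanosomes are lysosome-related organelles in which pigment cells make and store melanin. BLOC complexes and the small GTPases RAB32 and RAB38 route enzymes such as tyrosinase to the forming organelle, and RAB27A then binds melanophilin and through it myosin Va, the motor that holds ripe melanosomes on actin. Other cells use parts of the same machinery for their own granules, among them cytotoxic lymphocytes, platelets, alveolar type 2 cells and macrophages.

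Libraries held from 2205949 to 12495639 reads and from 15002 to 20052 genes above 0. The naive libraries stood apart in their pigment cell markers, a list of 9 genes including Sox10, Mitf, Tyr and Pmel. Their summed normalized counts ran from 212 to 990.2 in Siglec-F high libraries, from 348 to 668 in Siglec-F int libraries and from 59107 to 68098 in the libraries labelled naive. The sum over 10 eosinophil markers ran from 516 to 1154 in Siglec-F high, from 189.5 to 419 in Siglec-F int and from 268 to 742 in naive libraries. Ear1, Ear2 and Ear6 made up most of this sum in every library, with Ear2 averaging 409, 170 and 309 in the Siglec-F high, Siglec-F int and naive libraries. Of the 10 markers, Ccr3 and Prg3 were at 0 in every library labelled naive. They had few reads elsewhere, 29 and 18 over the Siglec-F high and 33 and 14 over the Siglec-F int libraries. Epx had 20, 16 and 3 reads and Il5ra 5, 23 and 5 reads over the Siglec-F high, Siglec-F int and naive libraries. Alox15 had its highest mean in naive libraries, at 47.9 against 18.9 in Siglec-F high and 24.2 in Siglec-F int libraries. Prg2 ran from 0.6 to 380 in Siglec-F high libraries. Of the 6 eosinophil markers tested, 0 differed from naive in either comparison (limma, adjusted p under 0.05). Siglecf itself averaged 11.9 ± 7.35, 12.8 ± 6.78 and 16.0 ± 13.9 in the Siglec-F high, Siglec-F int and naive libraries (SD, n = 3 each). The pigment markers go against the label of the naive libraries and the low eosinophil markers against the label of all 9. Siglec-F int library 2 stood apart in its macrophage and monocyte markers, with a sum of 92805 against at most 27961 in any other library. Each direction below is therefore one between libraries as they are labelled.

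**Figure D1:**
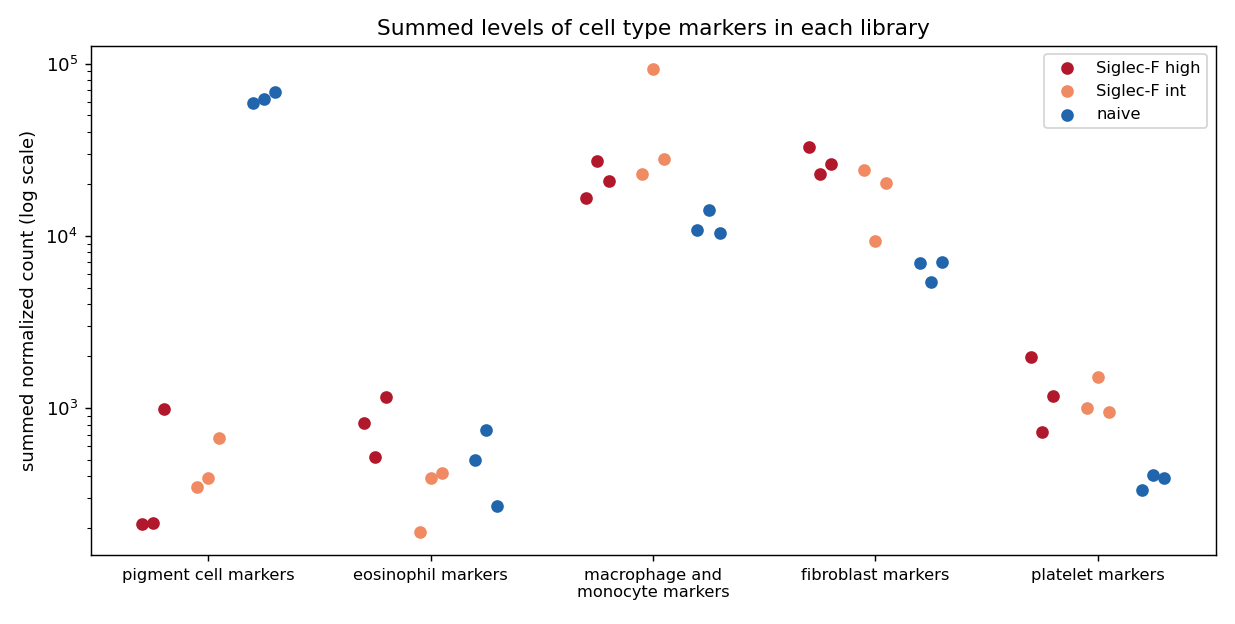
Summed normalized counts (log scale) of 5 cell type marker lists, 1 point per library, for the Siglec-F high, Siglec-F int and naive libraries from left to right within each list. Pigment cell markers lay between 59107 and 68098 in the naive libraries and at 990.2 or below in the other libraries, while the macrophage and monocyte list was lowest in the naive libraries.

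Promoters are shown because MITF and the related factor TFEB, regulators of pigment and lysosome genes, are known to bind TCATGTG and TCACGTG. Both strands were searched for these letters, which do not overlap each other in any window, in RefSeq promoter windows (GRCm38.p6) of 250 bases before to 50 after each gene start. Of the genes described, 9 had an entry, all but Rab38, with 11 windows between them. Of these, 3 windows held a match, those of Mlph, Hps1 and Hps5. Over all 32851 windows, 3.77% held TCATGTG and 3.77% held TCACGTG, and 7.4% held either. The 3 windows with a match are printed 5′ to 3′ on the gene's strand, with matches in capitals (CACGTGA is TCACGTG read on the other strand), and each match is described by the distance of its first base from the start.
Mlph, chr1:90914850-90915149, plus strand: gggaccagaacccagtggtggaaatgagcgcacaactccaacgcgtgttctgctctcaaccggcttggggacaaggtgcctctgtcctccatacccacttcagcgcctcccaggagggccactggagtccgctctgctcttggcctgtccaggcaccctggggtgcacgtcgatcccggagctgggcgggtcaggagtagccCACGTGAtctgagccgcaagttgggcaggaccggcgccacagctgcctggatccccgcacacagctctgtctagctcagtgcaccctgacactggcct
Hps1, chr19:42779929-42780228, minus strand: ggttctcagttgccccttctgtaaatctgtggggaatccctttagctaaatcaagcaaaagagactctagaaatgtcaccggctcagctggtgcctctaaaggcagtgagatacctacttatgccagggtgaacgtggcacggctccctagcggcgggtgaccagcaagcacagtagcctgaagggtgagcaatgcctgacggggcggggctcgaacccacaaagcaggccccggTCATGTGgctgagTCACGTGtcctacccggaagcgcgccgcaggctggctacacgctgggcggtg
Hps5, chr7:46795832-46796131, minus strand: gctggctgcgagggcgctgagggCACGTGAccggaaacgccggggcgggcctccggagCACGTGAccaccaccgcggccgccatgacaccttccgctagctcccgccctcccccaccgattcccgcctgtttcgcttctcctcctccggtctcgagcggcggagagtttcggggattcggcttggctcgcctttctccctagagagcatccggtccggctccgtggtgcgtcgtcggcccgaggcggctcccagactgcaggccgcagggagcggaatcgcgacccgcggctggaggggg
The Mlph match began 48 bases before the start. Hps1 held TCATGTG 15 bases and TCACGTG 2 bases before its start, and Hps5 held TCACGTG 227 and 192 bases before its start. These genes did not share a pattern in the libraries. Mlph was among the genes that fell most relative to the naive libraries. Hps1 fell less and was called only in the Siglec-F high libraries, and Hps5 was not called in either comparison.

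Relative to the libraries labelled naive, 7 of the 10 genes fell in the Siglec-F high libraries and 0 rose, and 5 fell in the Siglec-F int libraries and 0 rose. Of all 13642 genes tested, limma called 31.3% in the first comparison, 16.6% as lower, and 22.3% in the second, 10.3% as lower (Benjamini-Hochberg adjusted p under 0.05). The median log2 fold change of the 10 genes was -2.24 between Siglec-F high and naive, beside -0.11 over all tested genes, and -1.76 between Siglec-F int and naive, beside -0.018. In either comparison 7 of the genes had all Siglec-F libraries below all naive libraries, as did 26.3% and 27.6% of all tested genes. In the other direction 1 and 0 of the genes lay apart, beside 20.2% and 23.3% of all tested genes, while 14.7% and 12% of tested genes rose. Both comparisons share the naive libraries. In sorted bulk samples, fewer cells of a type and less RNA per cell cannot be told apart. Some marker lists of other cells moved with the same split. The eosinophil and cytotoxic lymphocyte sums overlapped those of the naive libraries in both comparisons. Of the 6 genes tested in each of these lists, 0 eosinophil genes were called in either comparison. Of the cytotoxic lymphocyte genes 0 were called in Siglec-F high and 1 in Siglec-F int libraries. All 9 pigment cell markers fell in both comparisons, and of 7 fibroblast markers 5 rose in Siglec-F high and 4 in Siglec-F int libraries, with sums of 22687 to 32818 in Siglec-F high, 9349 to 24028 in Siglec-F int and 5413 to 7060 in naive libraries. The sum over 6 alveolar type 2 cell markers was lower than in naive libraries, without overlap, at 1476 to 1759 in Siglec-F high, 1049 to 1153 in Siglec-F int and 2199 to 3108 in naive libraries. Its genes had median log2 fold changes of -0.94 and -0.98, with Lamp3 called as higher in Siglec-F high and Sftpa1 as lower in Siglec-F int libraries. The part of these cells in the results was not tested.

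**Figure D2:**
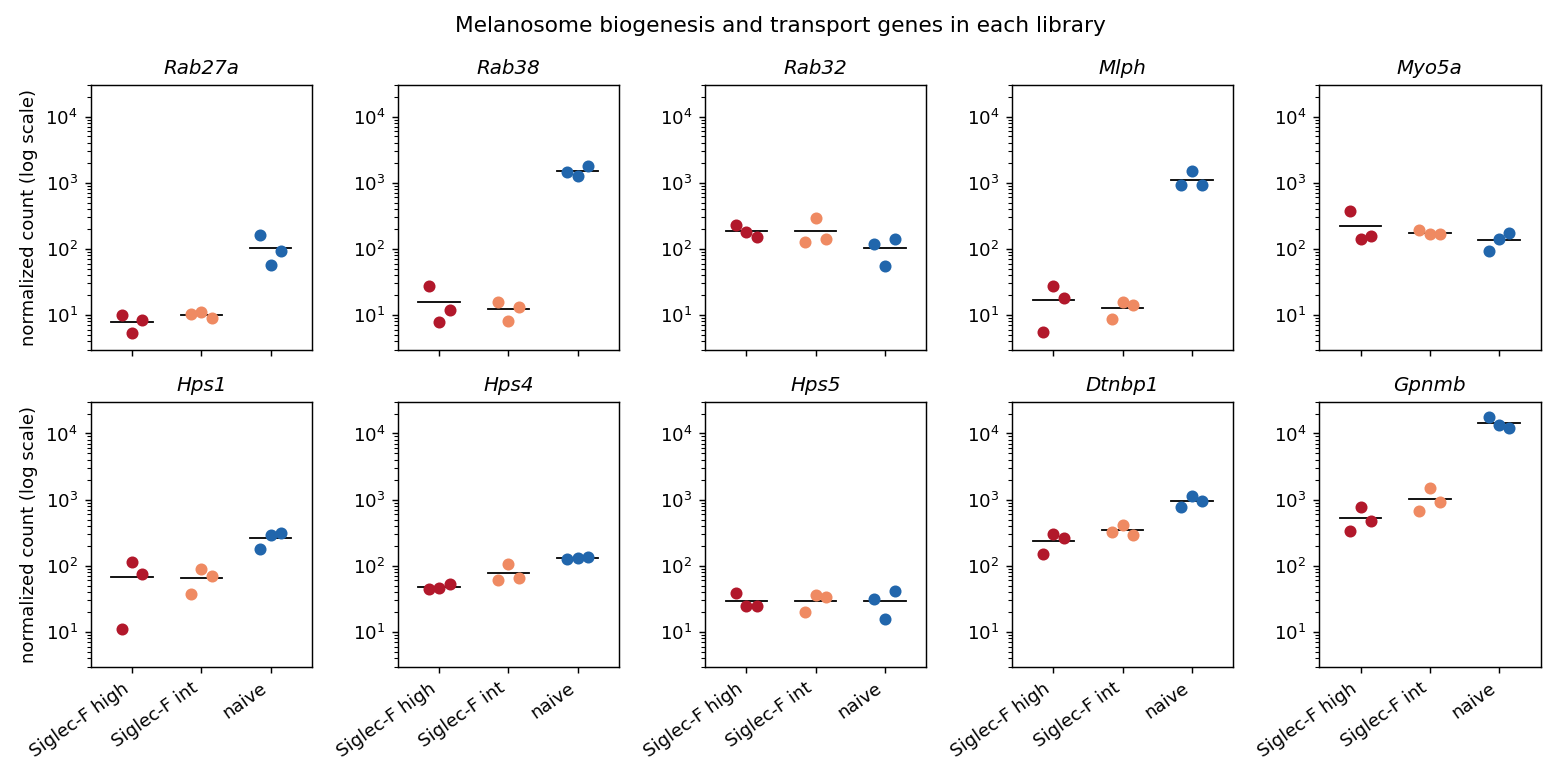
Normalized counts (log scale) of the 10 genes, with 1 point per library and a bar at the group mean, for the Siglec-F high, Siglec-F int and naive libraries. Rab38, Mlph, Gpnmb and Rab27a were separated from the naive libraries by the widest gaps, while the groups overlapped for Hps5 and Myo5a.

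Among the GTPases, Rab38 fell most. RAB38, on chromosome 7 (88430273 to 88491572, GRCm38), directs tyrosinase and TYRP1 to melanosomes, and its loss gives the chocolate coat colour of mice. Rab38 stood at 27.4, 7.76 and 11.9 normalized counts in the Siglec-F high libraries, 15.6, 8 and 13.3 in the Siglec-F int libraries and 1429, 1256 and 1790.0 in the naive libraries. Every naive library was far above every other library, with no overlap. The log2 fold change was -6.64 ± 0.50 (SE) between Siglec-F high and naive (limma, adjusted p = 9.79e-05) and -6.84 ± 0.50 between Siglec-F int and naive (adjusted p = 0.000105). These levels rest on 52, 90 and 3871 reads in the Siglec-F high, Siglec-F int and naive groups.

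Rab32, on chromosome 10 (10545002 to 10558265), encodes the closest relative of RAB38, which can stand in for it in pigment cells and is also used by macrophages. It did not follow Rab38. Its normalized counts were 228, 181 and 154 in the Siglec-F high libraries, 127, 288 and 140.4 in the Siglec-F int libraries and 119, 54.7 and 139 in the naive libraries. The Siglec-F high libraries lay above all naive libraries, as did 20.2% of tested genes, whereas the Siglec-F int libraries overlapped them. Neither difference was called, with log2 fold changes of 0.93 (95% interval -0.08 to 1.93, limma adjusted p = 0.136) and 0.82 (-0.18 to 1.83, adjusted p = 0.215). Neither interval reached those of Rab38, which were -7.75 to -5.54 and -7.95 to -5.74, although the difference between these genes was not itself tested.

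Rab27a, on chromosome 9 (73044854 to 73097629), encodes the GTPase that recruits melanophilin to melanosomes and that also docks the lytic granules of cytotoxic lymphocytes. Its normalized counts were 9.87, 5.37 and 8.53 in the Siglec-F high libraries, 10.2, 10.95 and 9.17 in the Siglec-F int libraries and 159, 57.3 and 91.9 in the naive libraries. The naive libraries were all higher, although they differed among themselves by more than the other groups did. Rab27a fell, with log2 fold changes of -3.45 ± 0.58 in Siglec-F high and -3.11 ± 0.58 in Siglec-F int libraries (limma, adjusted p = 0.00228 and 0.00464), on 28, 74 and 271 reads per group. An exon of Rab27a overlaps the processed pseudogene Gm27186 on the same strand, so that reads there may not have been counted for Rab27a. Markers of cytotoxic lymphocytes were low in all groups, with sums over 8 genes of 37.3 to 68.6 in Siglec-F high, 52.6 to 137 in Siglec-F int and 39.3 to 146 in naive libraries. Ncr1 was at 0 in both Siglec-F groups but had only 6 reads in the naive group. Of the 6 markers tested only Klrd1 was called, as higher in Siglec-F int (limma, adjusted p = 0.0481). There library 2 stood at 113 normalized counts, against 19.9 and 33.2 in libraries 1 and 3.

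The partners of RAB27A were not called alike. Mlph, on chromosome 1 (90915085 to 90951142), encodes melanophilin, the linker whose loss gives leaden mice. It stood at 5.48, 27.4 and 17.9 normalized counts in the Siglec-F high libraries, 8.59, 15.6 and 14.2 in the Siglec-F int libraries and 913, 1479.7 and 920.5 in the naive libraries. The lowest naive value was far above the highest of the other libraries. Mlph changed by -6.15 ± 0.57 in Siglec-F high and -6.32 ± 0.57 in Siglec-F int libraries (log2, limma, adjusted p = 0.000196 and 0.000198).

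Myo5a, on chromosome 9 (75071015 to 75223688), encodes the myosin Va heavy chain, which is mutated in dilute mice and which many cells use to carry vesicles. Its normalized counts were 374, 141 and 158 in the Siglec-F high libraries, 191, 170.2 and 169 in the Siglec-F int libraries and 94.0, 141 and 172 in the naive libraries. The groups overlapped, and Siglec-F high library 1 was the highest of all. The log2 fold changes of 0.62 (95% interval -0.30 to 1.54) and 0.42 (-0.50 to 1.34) were not called (limma, adjusted p = 0.267 and 0.496). The cargo-binding side of the transport unit, Rab27a and Mlph, thus fell in both comparisons, and its motor was not called in either. The intervals of Mlph, -7.40 to -4.90 and -7.58 to -5.07, did not reach those of Myo5a, although the difference between these genes was not itself tested.

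BLOC-3, the exchange factor that activates RAB32 and RAB38, is a dimer of HPS1 and HPS4, and loss of either in humans causes Hermansky-Pudlak syndrome with albinism and bleeding. Hps4, on chromosome 5 (112343083 to 112378414), had normalized counts of 45.0, 46.5 and 52.9 in the Siglec-F high libraries, 61.7, 107 and 66.4 in the Siglec-F int libraries and 128, 133 and 135 in the naive libraries. The 3 groups did not overlap, in the order Siglec-F high, Siglec-F int and naive. Hps4 fell by 1.44 ± 0.37 in Siglec-F high libraries (log2, limma, adjusted p = 0.0157). In Siglec-F int libraries its -0.79 ± 0.37 was not called (adjusted p = 0.147), except when library 1 of Siglec-F high and library 2 of Siglec-F int were both left out (-1.03, adjusted p = 0.0291).

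Hps1, on chromosome 19 (42755105 to 42779978), was more variable. It had normalized counts of 10.97, 114 and 75.1 in the Siglec-F high libraries, 37.0, 88.0 and 69.6 in the Siglec-F int libraries and 180.1, 289 and 316 in the naive libraries. Siglec-F high library 1 was the lowest by far, and every naive library was above every other library. The log2 fold change was -2.44 ± 0.74 between Siglec-F high and naive (limma, adjusted p = 0.0307) and -2.04 ± 0.74 between Siglec-F int and naive (adjusted p = 0.0716, not called). Without Siglec-F high library 1 the first was -1.45, still called. That call was lost without naive library 1, 2 or 3 (adjusted p = 0.0554, 0.0860 and 0.0891, over a range of 0.0108 to 0.0891 in all alternatives), with equal totals, with no filter, with only the groups compared and with edgeR. In Siglec-F int libraries Hps1 was called under 6 of 20 alternatives. These were leaving out Siglec-F high library 1 or 2 (adjusted p = 0.00353 and 0.0468) or Siglec-F high library 1 with Siglec-F int library 2 (0.00435), DESeq2 (0.0179), only the groups compared (0.00680) and a replicate block (0.0253), over a range of 0.00353 to 0.221.

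Dtnbp1, on chromosome 13 (44922075 to 45002147), encodes dysbindin, a subunit of BLOC-1, which sorts cargo from endosomes to melanosomes. Its normalized counts were 150.3, 305 and 262 in the Siglec-F high libraries, 325, 416 and 288 in the Siglec-F int libraries and 765, 1154 and 956 in the naive libraries. The naive libraries were all higher, and the Siglec-F groups overlapped. Dtnbp1 fell, with log2 fold changes of -2.04 ± 0.34 in Siglec-F high and -1.48 ± 0.34 in Siglec-F int libraries (limma, adjusted p = 0.00216 and 0.0116). The second call was lost without Siglec-F int library 3 (adjusted p = 0.0575, the highest over its alternatives, the lowest being 0.000733).

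Hps5, on chromosome 7 (46760466 to 46796064), encodes a subunit of BLOC-2, which acts after BLOC-1 in delivery to melanosomes. Its normalized counts were 39.5, 24.5 and 24.7 in the Siglec-F high libraries, 19.9, 36.2 and 33.5 in the Siglec-F int libraries and 31.0, 15.6 and 41.8 in the naive libraries. The 3 groups covered one another, with means of 29.6 ± 8.59, 29.9 ± 8.78 and 29.5 ± 13.1 (SD, n = 3 each). Its log2 fold changes of 0.074 and 0.079 had 95% intervals of -1.14 to 1.29 and -1.14 to 1.30 (limma, adjusted p = 0.928 and 0.933), so that a change of 2-fold in either direction lay within the error.

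Gpnmb, on chromosome 6 (49036546 to 49070929), encodes a membrane glycoprotein related to PMEL that sits in melanosomes and that macrophages and osteoclasts also make. Its normalized counts were 330.1, 770.2 and 477 in the Siglec-F high libraries, 676, 1503 and 932 in the Siglec-F int libraries and 17914, 13387 and 11891 in the naive libraries. Naive libraries were again all higher, and the Siglec-F groups overlapped. Gpnmb fell, with log2 fold changes of -4.84 ± 0.38 in Siglec-F high and -3.85 ± 0.38 in Siglec-F int libraries (limma, adjusted p = 9.88e-05 and 0.000369). The summed level of 12 macrophage and monocyte markers was 16665 to 27106 in Siglec-F high, 22863 to 92805 in Siglec-F int and 10360 to 14164 in naive libraries. None of those markers was at 0 in any group. Of the 12, 5 rose in Siglec-F high and 7 in Siglec-F int libraries, beside 14.7% and 12% of all tested genes. The part of these cells in the level of Gpnmb was not tested.

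**Figure D3:**
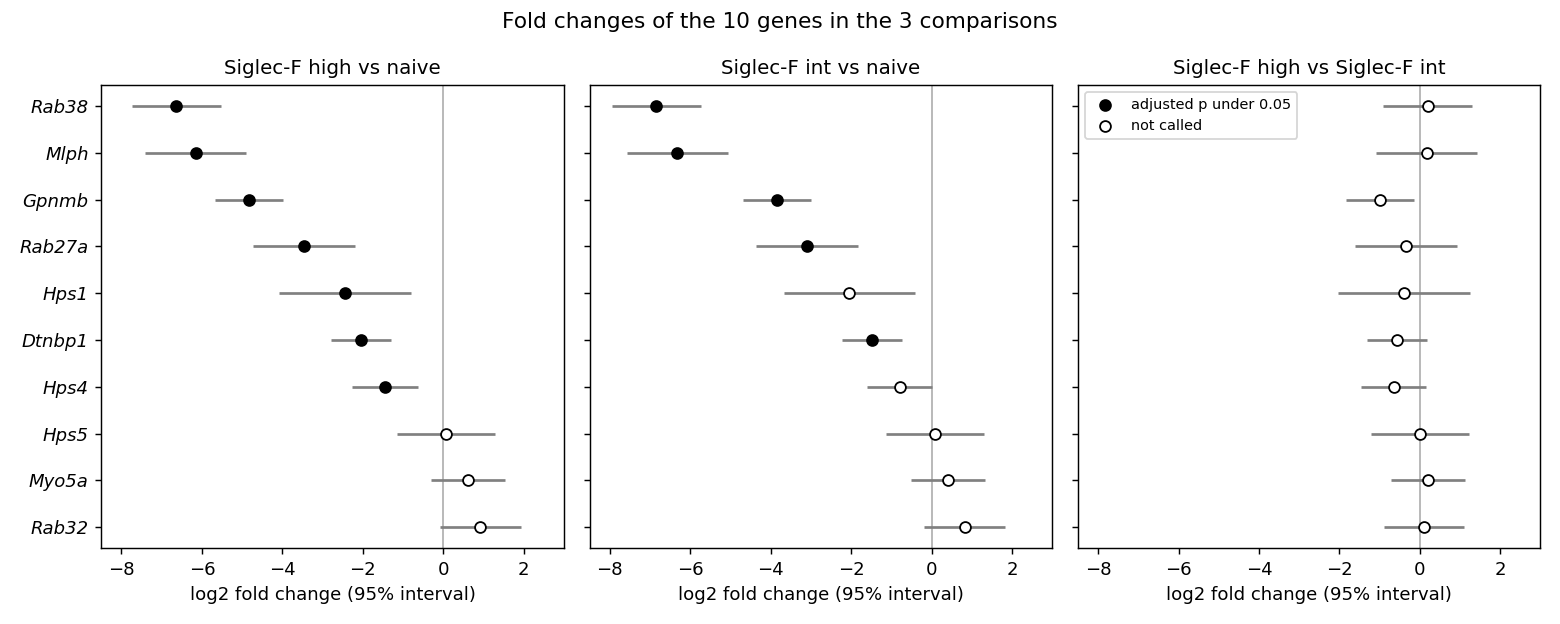
Log2 fold changes of the 10 genes with 95% intervals for Siglec-F high vs naive, Siglec-F int vs naive and Siglec-F high vs Siglec-F int. Filled points had a limma adjusted p under 0.05: 7 in the first comparison, 5 in the second and 0 in the third.

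Between the Siglec-F high and Siglec-F int libraries, 0 of the 10 genes were called by limma, beside 0% of all 13642 tested genes. At an unadjusted p under 0.05 limma had 1 of the 10 genes and 591 of all genes (4.33%), edgeR likewise had 1 and 636, and DESeq2 had 1 and 909. After adjustment edgeR called 0 genes and DESeq2 6, none of them among the 10. The gene with an unadjusted limma p under 0.05 was Gpnmb, at -0.99 ± 0.38 on the log2 scale (unadjusted p = 0.0262, adjusted p = 0.797, 95% interval -1.83 to -0.14). Siglec-F int library 2, which had the highest Gpnmb of the 6 libraries at 1503, also had the highest macrophage and monocyte marker sum at 92805, and the part of those cells in the difference was not tested. Hps4 was the only one of the 10 with no overlap, lower in Siglec-F high, as were 5.75% of all tested genes, and 0 of the 10 lay apart as higher, beside 5.52% (Hps4 -0.65, 95% interval -1.47 to 0.16). Intervals for the strongly changed genes were -0.91 to 1.31 for Rab38, -1.08 to 1.43 for Mlph and -1.62 to 0.92 for Rab27a, so a difference of 2-fold between the Siglec-F groups, in at least 1 direction, was within the error for each.

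Other subunits of the BLOC complexes and of AP-3, with the tether gene Vps33a, had few calls in Siglec-F int libraries and calls near the share of all genes in Siglec-F high libraries. Of 15 tested BLOC and AP-3 genes (16 listed), 1 rose and 4 fell in Siglec-F high relative to naive libraries, with a median log2 fold change of -0.45, and 1 rose and 1 fell in Siglec-F int libraries, with a median of -0.10. Over all tested genes 14.7% rose and 16.6% fell in the first comparison, and 12% and 10.3% in the second. Without overlap, 5 of the 15 genes lay below the naive libraries in Siglec-F high and 7 in Siglec-F int, beside 26.3% and 27.6% of all tested genes. In the other direction 1 and 1 lay apart, beside 20.2% and 23.3%. The genes that moved included both small subunits of AP-3, an adaptor that carries tyrosinase from endosomes, and they moved in opposite directions. Ap3s1 stood at 599, 175 and 180.0 normalized counts in the Siglec-F high libraries, 216, 218 and 219 in the Siglec-F int libraries and 107, 52.1 and 76.0 in the naive libraries, so that all naive libraries were lower. It rose by 1.81 ± 0.49 and 1.52 ± 0.49 on the log2 scale (limma, adjusted p = 0.0189 and 0.0459). The first call was lost without naive library 2 and with only the groups compared (adjusted p = 0.0638 and 0.0562, range 0.000700 to 0.0638). The second was lost without any one of the Siglec-F int or naive libraries or without Siglec-F high library 3 (range 0.00370 to 0.135). It was also lost with no filter (limma, adjusted p = 0.0800). Ap3s2 averaged 66.7 ± 15.7, 70.8 ± 18.9 and 244 ± 34.2 in Siglec-F high, Siglec-F int and naive libraries (SD, n = 3 each) and fell, with log2 fold changes of -1.87 ± 0.36 and -1.79 ± 0.36 (limma, adjusted p = 0.00476 and 0.00694), calls that held in all 20 alternatives.

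The remaining genes of this list that fell in Siglec-F high libraries were not called in Siglec-F int libraries. For each of them all Siglec-F int libraries nevertheless lay below all naive libraries. They were Ap3d1, the delta subunit of AP-3 mutated in mocha mice, at 473 ± 297 in Siglec-F high and 1251 ± 130.4 in naive libraries, Vps33a, a tethering protein mutated in buff mice, at 31.7 ± 16.2 and 113 ± 33.0, and Bloc1s4, a BLOC-1 subunit, at 69.9 ± 24.4 and 177 ± 35.7. Limma's adjusted p in Siglec-F high libraries was 0.0187, 0.0187 and 0.0230. In Siglec-F int libraries the log2 fold changes of Ap3d1, Vps33a and Bloc1s4 were -0.83, -1.11 and -1.13 (limma, adjusted p = 0.192, 0.143 and 0.058). None of these genes was called between the Siglec-F groups. Leaving out 1 library ended the call of Ap3d1 (naive library 2 or 3, adjusted p = 0.0566 and 0.0554, range 0.00366 to 0.0572) and of Vps33a (naive library 1 or 2, adjusted p = 0.0504 and 0.0607, range 0.00422 to 0.0607). Fitting only the groups compared also ended both calls (limma, adjusted p = 0.0512 and 0.0563), and edgeR ended that of Ap3d1 (adjusted p = 0.0572). Without Siglec-F high library 1 both were called in Siglec-F int libraries (adjusted p = 0.0201 and 0.0267), as they were with only the groups compared (limma, adjusted p = 0.0111 and 0.0343).

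Of 19 tested RAB partners and motors (25 listed), 1 rose and 2 fell in Siglec-F high relative to naive libraries, and 1 rose and 3 fell in Siglec-F int libraries, with medians of -0.16 and -0.23. All tested genes were called in 31.3% and 22.3% of cases, so both directions together were no more frequent than the background. By direction, 14.7% of all tested genes rose and 16.6% fell in the first comparison, and 12% and 10.3% in the second. Only the 3 that fell in Siglec-F int libraries exceeded their share. Without overlap, 5 and 4 of the 19 lay below the naive libraries, beside 26.3% and 27.6% of all tested genes, and 2 and 3 above, beside 20.2% and 23.3%. The gene that rose was Rab27b, the relative of Rab27a that platelets and secretory cells use. It stood at 13.2, 30.4 and 30.7 normalized counts in the Siglec-F high libraries, 74.1, 16.9 and 19.3 in the Siglec-F int libraries and 0, 2.61 and 2.51 in the naive libraries. All naive libraries were below the others, on 4 reads in all, so the fitted rises of 3.37 ± 0.83 and 3.69 ± 0.83 (log2, limma, adjusted p = 0.0132 and 0.0109) depend on the pseudocount. The second call was lost without Siglec-F int library 1 (adjusted p = 0.0615, range 0.000412 to 0.0615). Rab27a and Rab27b thus changed in opposite directions. The sum over 5 platelet markers was also higher, at 722 to 1987 in Siglec-F high, 942 to 1505 in Siglec-F int and 334 to 409 in naive libraries. Pf4 and Ppbp rose in both comparisons and made up most of the sum. Itga2b averaged 58.3 ± 10.3, 65.3 ± 7.80 and 76.2 ± 50.8 and Gp9 3.58 ± 6.20, 3.61 ± 1.16 and 5.94 ± 6.34 in Siglec-F high, Siglec-F int and naive libraries (SD, n = 3 each). Itga2b was not called, Gp9 was below the minimum for testing and Gp1bb was at 0 in all groups. The part of platelets in the level of Rab27b was not tested.

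Of the motors and tethers that fell, Myo7a, an unconventional myosin of melanosomes in the retinal pigment epithelium, averaged 26.1 ± 16.6, 33.1 ± 16.6 and 199 ± 56.7 in Siglec-F high, Siglec-F int and naive libraries (limma, adjusted p = 0.00599 and 0.0154). Mreg, melanoregulin, which modifies the dilute coat colour, averaged 6.17 ± 0.352, 11.5 ± 7.73 and 70.5 ± 32.4 (adjusted p = 0.00927 and 0.0227), on 23, 94 and 190 reads per group. Leaving out Siglec-F int library 1 or naive library 2 or 3 ended the Siglec-F int calls of both, as did Siglec-F int library 3 for Myo7a (ranges 0.000301 to 0.0649 and 0.00374 to 0.0860). With no filter the Siglec-F int call of Mreg was lost too (limma, adjusted p = 0.0556). Sytl2, an effector of RAB27, averaged 6.42 ± 2.04, 1.37 ± 1.43 and 26.4 ± 9.73 and fell in Siglec-F int libraries (adjusted p = 0.00750). Sytl2 had only 23, 12 and 71 reads in these groups, and its Siglec-F int log2 fold change ran from -4.17 to -2.49 over the alternatives. In Siglec-F high libraries its log2 fold change of -1.86 was not called (adjusted p = 0.0821), except with a pseudocount of 4 (-1.51, adjusted p = 0.0368), and all 3 libraries lay below the naive libraries. The difference between these comparisons was not called (1.82, adjusted p = 0.797).

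Among melanin enzymes and melanosome cargo, 9 of 10 genes fell in both comparisons, beside 16.6% and 10.3% of all tested genes, with medians of -6.94 and -6.69. This list shares Pmel, Tyr, Tyrp1, Dct and Mlana with the pigment cell markers, so the lists are not separate observations. Rab38 and Mlph, at -6.84 and -6.32 in Siglec-F int libraries, lay within the range of the cargo genes, where Slc24a5, an ion exchanger of melanosomes, was at -4.90. The difference between the lists was not tested. Pmel, which forms the fibrils that melanin coats, had log2 fold changes of -8.90 ± 0.60 and -7.85 ± 0.60 (limma, adjusted p = 7.68e-05 and 0.000119), and Dct, an enzyme of melanin synthesis, was at -7.42 ± 0.61 and -7.25 ± 0.61. Mlana, a small melanosome membrane protein, was at -7.43 ± 0.77 and -6.65 ± 0.77. Gpr143, a receptor of the melanosome membrane, had 3 reads in Siglec-F high and 0 in Siglec-F int libraries, against 291 in naive libraries. It was at least 292-fold lower in Siglec-F int libraries, taking 3 reads over the group as the floor, and the median with that bound stayed at -6.69. Atp7a, the copper pump that many cells express, was the exception, at -0.24 ± 0.55 and 0.47 ± 0.55 (adjusted p = 0.761 and 0.571).

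**Figure D4:**
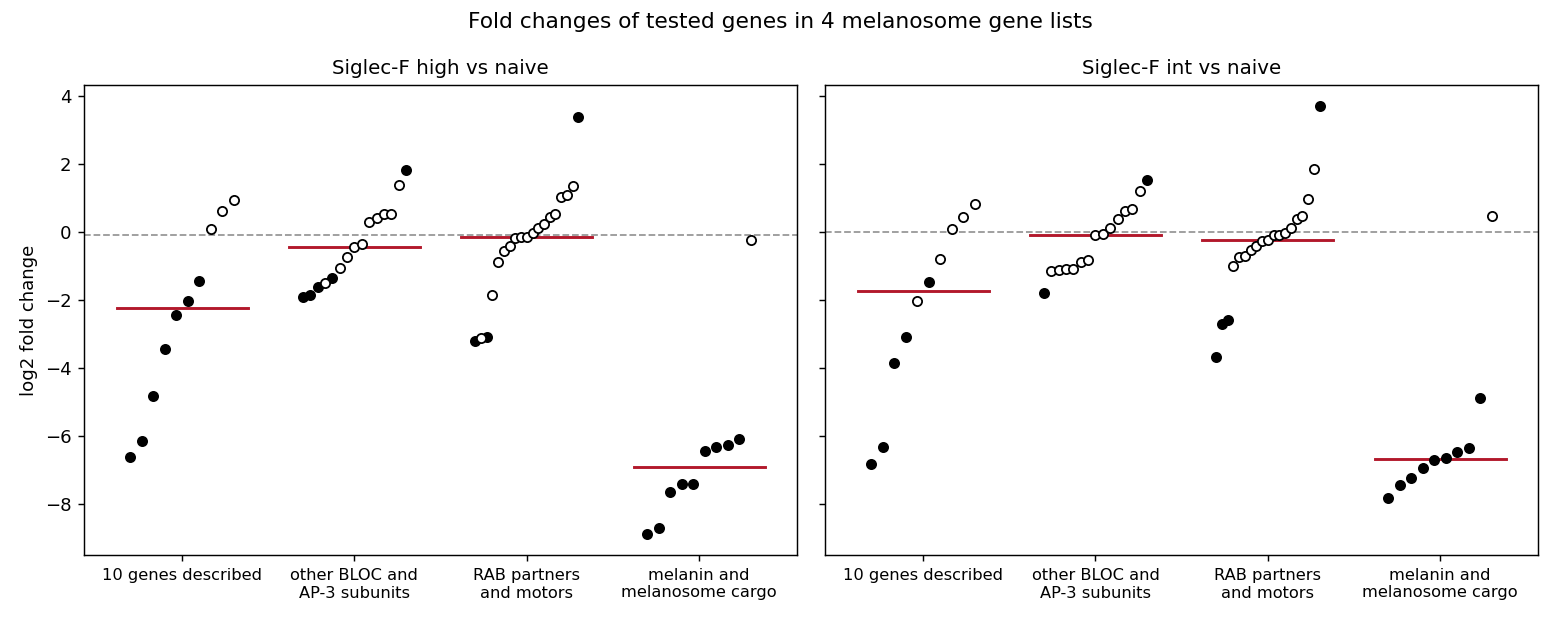
Log2 fold changes of the tested genes of 4 lists, each sorted from lowest to highest, for Siglec-F high vs naive and Siglec-F int vs naive. Filled points had a limma adjusted p under 0.05, red bars mark list medians and the dashed line the median of all tested genes. The medians of the 10 genes described, -2.24 and -1.76, lay between those of the cargo list, -6.94 and -6.69, and those of the other machinery lists, from -0.45 to -0.10.

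Across the 9 libraries the 7 genes that fell in Siglec-F high libraries followed one another, with Pearson's r of log2 values between 0.66 and 0.97 over their 21 pairs. For all of them the naive libraries lay apart from the other 6, so r describes that split and carries no test. Of 13632 uniquely named genes tested, those with the pattern most like Rab38 were Zfp934, Bace2 and Car9 (r = 0.995, 0.994 and 0.989). Mlph was most like Mcm2, Eci1 and Tspan10 (r = 0.997, 0.994 and 0.994), and Gpnmb most like Flywch2, Ccdc13 and Mcm10 (r = 0.993, 0.991 and 0.990). Rab27a was most like Sord, Lmx1b and Nop56 (r = 0.988, 0.984 and 0.982), and Dtnbp1 most like Uap1l1, 2210016L21Rik and Tbc1d9b (r = 0.994, 0.993 and 0.992). The BLOC-3 genes were most like P4hb, Fastk and Chchd5 for Hps1 (r = 0.992, 0.991 and 0.987) and Litaf, Tiam1 and Marcksl1 for Hps4 (r = 0.987, 0.985 and 0.984). The genes that were not called had looser matches, which were Lrp12, Spink2 and Ago1 for Rab32 (r = 0.969, 0.962 and 0.949), Tgoln1, Spred2 and Dld for Myo5a (r = 0.946, 0.944 and 0.941) and Zfp27, Fbxw11 and Clcc1 for Hps5 (r = 0.955, 0.918 and 0.911). Every match was picked as among the highest of 13632 genes over only 9 libraries, so these r values carry no test either.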

How the data were processed

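Sorted lung cells, labelled as more than 98% pure with an RNA integrity number above 6.3, were pooled and sequenced with Cell-seq libraries, per the labels' protocols. Per the submitters' processing notes, the tools were TopHat2 2.1.0, HTSeq and DESeq2 1.10.0, with GRCm38. The deposited signal values are normalized counts, which the authors obtained from the reads of each gene and 1 size factor per library, given to 2 decimals. The annotation release, strand setting and use of molecular identifiers are not given in the sources used here. Without strand, reads of Hps1 and Hps4 cannot be told from those of their antisense partners Gm16244 and Gm20636.

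Of 54670 entries, 63 with a name turned into a date (0.219% of the total), 116 exact duplicates and 42 further entries that repeated a name with equal values were left out. Each column was divided by its smallest step, which gave whole reads, within 0.05 read, for 100% of values up to 2000 reads. Floors of 3 reads and read ratios cover counting error only. Values are not per length, so levels were compared between libraries and not between genes.

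On the log2(value + 1) scale, all 9 libraries entered a single limma model (3.58.1, R 4.3.3) with a variance trend, over 13642 genes with a mean of at least 5. Tests were two-sided, and this scale understates changes of low genes. P-values measure the spread between pools of mice. Alternatives were other pseudocounts, filters and scalings, a replicate block, only the groups compared, each library left out, and count tests of the recovered reads. With edgeR (4.0.16) 3550 genes were called for Siglec-F high and 2875 for Siglec-F int relative to naive, and with DESeq2 (1.42.0) 4964 and 4018. Between the Siglec-F groups the counts were 0 with edgeR and 6 with DESeq2. A further alternative left out library 1 of Siglec-F high and library 2 of Siglec-F int together, which stood apart in an earlier look at these data. Read counts of replicates differed beyond sampling noise, with a chi-square per degree of freedom of 15.3 to 131.

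The genes and lists were chosen with earlier results of these data known, so lists are described by counts and medians. All 10 genes are named, then from each other list up to 3 called genes per direction and comparison with naive, and for each of the 10 the 3 genes with the highest r over the libraries. Bloc1s4, Atp7a, Slc24a5 and the marker genes were named after their values were seen. Positions are from GENCODE M21, promoters from RefSeq, and figures were drawn with matplotlib 3.10.9.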

Additional observations from a re-analysis of the deposited data

How the results depend on the processing

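The genes that fell in Siglec-F high relative to naive libraries numbered 6 or 7 under all 20 alternatives, and those in Siglec-F int relative to naive libraries 4 to 7. Rab38, Mlph, Gpnmb and Rab27a were called in both comparisons under each of these, and no gene of the 10 was called as higher in any. With library 1 of Siglec-F high and library 2 of Siglec-F int left out together, 7 were called in each comparison. Equal totals moved the median of all genes in the comparisons with naive libraries to 0.022 and 0.23, against -0.11 and -0.018 in the values as deposited, and TMM factors moved it to 0.039 and 0.14. Higher and lower calls numbered 1999 and 2267 for Siglec-F high and 1634 and 1402 for Siglec-F int as deposited, 2141 and 1613 and then 2007 and 897 with equal totals, and 2172 and 1378 and then 1837 and 1038 with edgeR.

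Fitting only the groups compared gave 2509 and 4808 called genes in the comparisons of Siglec-F high and of Siglec-F int with naive, against 4266 and 3036. Leaving out 1 library gave 2770 to 5101 and 1401 to 5167, the first moving by over 1.5 times only without naive library 1 (2770), and the second without Siglec-F high library 1 (5167), Siglec-F int library 1 or 3 (1497 and 1401) or naive library 1 (1939). Without both libraries named above the second count was 4623. DESeq2 called 6 genes between Siglec-F high and Siglec-F int. The cause of these differences was not tested.

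Signs turned for differences that were not called. Hps5 ranged from -0.31 to 0.37 and from -0.30 to 0.38 in the comparisons of Siglec-F high and of Siglec-F int with naive when 1 library was left out, and was -0.15 and -0.078 without both. Between Siglec-F high and Siglec-F int, leaving out 1 library gave -0.27 to 0.15 for Hps5, -0.27 to 0.58 for Rab38, -0.12 to 0.47 for Rab32, -0.24 to 0.46 for Myo5a, -1.04 to 0.59 for Hps1 and -0.28 to 0.79 for Mlph. Without both libraries Rab38 was at -0.53, Myo5a at -0.26 and Hps1 at 0.85. Rab32 was at -0.027 with equal totals and -0.014 with edgeR, Hps1 at 0.023 with edgeR and 0.047 with DESeq2, and Hps5 at 0.0041 with DESeq2.

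With the replicate number as a block, 7, 6 and 0 of the 10 genes were called, Hps1 being added in Siglec-F int libraries (adjusted p = 0.0253, range over its alternatives 0.00353 to 0.221). The labels do not say what the number marks, and the libraries were not treated as paired. Deviations of same-numbered libraries correlated at -0.029 to 0.14, over 0.1 in 2 of 9 pairs. As a hint from the data, 8 of 9 libraries correlated best with their own number, and the 3 same-numbered pairs of Siglec-F high and Siglec-F int were at 0.123, 0.141 and 0.071. Depth limits Rab27a and Rab38 in the Siglec-F high libraries, with 28 and 52 reads.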
